A study of Mus musculus with 25 samples.

Results

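The 6 genes described here encode the receptors CTLA-4 (Ctla4), CD28 (Cd28) and ICOS (Icos) and the ligands CD80 (Cd80), CD86 (Cd86) and ICOS ligand (Icosl). They were taken by gene symbol from a table of 55450 genes, and all 6 passed the filter on low counts that left 18031 genes for testing. They were read in 25 melanomas of the mouse line B2905, also called M4, grown in C57BL/6 mice. Each tumour gave 1 RNA library. Of 40 implanted mice, 30 received an antibody against CTLA-4 and 5 an isotype IgG2b antibody, each at 10 mg/kg, 2 times a week for 2 weeks, from an average tumour size of 75 mm3. Another 5 mice were left untreated, and no data of theirs are analysed here. Of the mice given anti-CTLA-4, 20 tumours were read, and their labels sort them by how size changed up to 10 to 11 days past the final dose. They were 8 responders, which shrank, 6 stable tumours, which kept their size, and 6 non-responders, which grew. The 5 IgG2b tumours are called controls. The labels give each tumour its own animal number. Apart from identifying numbers, the antibody and the outcome are the only labelled differences. Every tumour comes from the same line, so the values describe 1 tumour model.

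CD28 gives T cells a second, activating signal when it binds CD80 or CD86 on antigen-presenting cells. CTLA-4 is induced on activated T cells and is held at a high level by regulatory T cells. It binds the same ligands more tightly than CD28 does, restrains T cells and can remove CD80 and CD86 from the surface of the presenting cell. ICOS is induced after activation, binds ICOS ligand on B cells, dendritic cells, macrophages and some stromal cells, and is known to rise on T cells of patients treated with antibodies against CTLA-4.

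Library totals ranged from 8.76 to 34.3 M counts. Protein-coding genes took 82.9 to 89.2% of counts in controls, non-responders and stable tumours, but 23.8 to 87.0% in responders, where only responder 5, at 87.0%, lay in the range of the other groups. The labels also carry a running number that goes group after group. What it stands for is not stated, and it cannot be told apart from group. Summed melanocytic markers had a median of 12049 CPM in controls, 2375 CPM in non-responders, 399.6 CPM in stable tumours and 373 CPM in responders, and all 7 were called lower in responders and stable tumours than in non-responders. Levels are given as CPM, counts per M counts of a library scaled by TMM. A gene is called where edgeR's quasi-likelihood test gave an adjusted p (Benjamini-Hochberg over all genes tested) under 0.05. Each of the 3 comparisons with controls uses the same 5 control tumours.

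On GRCm38, Cd28 (ENSMUSG00000026012.2, chr1:60716800-60773359), Ctla4 (ENSMUSG00000026011.13, chr1:60887000-60915832) and Icos (ENSMUSG00000026009.14, chr1:60977927-61000320) lie on the plus strand of chromosome 1 with no other protein-coding gene between them. Annotated gaps of 114 kb separate Cd28 from Ctla4, and 62.1 kb separate Ctla4 from Icos. Cd80 (ENSMUSG00000075122.5, chr16:38455561-38496335, plus strand) and Cd86 (ENSMUSG00000022901.13, chr16:36603869-36666081, minus strand) share chromosome 16. Icosl (ENSMUSG00000000732.9, chr10:78069302-78083913, plus strand) is on chromosome 10. A same-strand model of unassigned type, Gm37039, lies inside Icos and averaged 0.698 CPM against 12.7 CPM for Icos, so some reads could be assigned to either.

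RefSeq promoter windows on GRCm38.p6, from 250 bases before to 50 bases after the annotated start, were matched for 3 of the 6 genes. They are shown because the windows differ in base composition and in the motifs they hold. Capitals mark the motif found. All 3 are on the plus strand, Ctla4 at chr1:60908775-60909074, Cd80 at chr16:38458683-38458982 and Icosl at chr10:78069118-78069417. The RefSeq starts of all 3 lie inside the GENCODE genes, downstream of the GENCODE starts.
Ctla4: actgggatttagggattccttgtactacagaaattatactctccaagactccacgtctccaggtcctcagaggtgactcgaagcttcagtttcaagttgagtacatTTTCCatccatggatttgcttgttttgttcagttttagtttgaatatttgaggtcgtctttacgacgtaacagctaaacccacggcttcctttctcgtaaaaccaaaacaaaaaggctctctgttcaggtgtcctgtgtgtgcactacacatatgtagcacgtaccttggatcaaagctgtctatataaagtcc
Cd80: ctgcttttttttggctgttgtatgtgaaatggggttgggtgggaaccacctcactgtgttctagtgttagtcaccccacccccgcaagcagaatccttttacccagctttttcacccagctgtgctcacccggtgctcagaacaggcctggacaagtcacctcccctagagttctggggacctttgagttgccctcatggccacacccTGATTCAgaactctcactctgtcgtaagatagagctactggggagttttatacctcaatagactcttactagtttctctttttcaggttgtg
Icosl: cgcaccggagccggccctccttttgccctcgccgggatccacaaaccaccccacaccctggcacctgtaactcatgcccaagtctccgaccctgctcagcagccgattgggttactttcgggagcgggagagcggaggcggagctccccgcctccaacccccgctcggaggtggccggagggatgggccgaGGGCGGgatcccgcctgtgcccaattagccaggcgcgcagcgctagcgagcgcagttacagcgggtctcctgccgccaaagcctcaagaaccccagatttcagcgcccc

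The Icosl window had a GC content of 68%, above that of 87.4% of the 32851 windows in the table. The Cd80 window had 49.7% and the Ctla4 window 42%, against a median of 52.7% over all windows. Searched on both strands were GGAAA (the core of NFAT sites), TGANTCA (AP-1), TTCNNNGAA (STAT), TGTTTAC (forkhead) and GGGCGG (the GC box bound by SP1). No match overlapped another. The Ctla4 window held GGAAA on the minus strand, starting at -144 from the transcript start, a motif found in 61.3% of all windows. The Cd80 window held TGATTCA, a match to TGANTCA, at -42, found in 7.81% of windows. The Icosl window held GGGCGG at -59, found in 35.7% of windows. The STAT motif, present in 8.30% of windows, and the forkhead motif, present in 3.65%, were not in these 3 windows. A match is a description of the letters and not a shown binding site.

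All 6 genes rose in every anti-CTLA-4 outcome group against controls. Icos rose most (fold changes of 17.4 in responders, 20.9 in stable tumours and 8.78 in non-responders) and Icosl least (2.10, 2.25 and 1.67). The shares of all tested genes called in these comparisons were 65% in responders (36.1% higher and 28.9% lower), 41.8% in stable tumours (22.2% higher and 19.6% lower) and 13.9% in non-responders (10.6% higher and 3.29% lower). Among outcome groups, Ctla4, Icos and Cd80 rose in responders over non-responders, 3 of the 6 genes, where 48.9% of all genes were called, 25.2% upward and 23.8% downward. Stable tumours exceeded non-responders for 5 of the 6, all but Icosl, where 14.9% of all genes were called, 7.08% higher and 7.86% lower. Between responders and stable tumours only Cd86 was called, lower in responders, where 38.2% of all genes were called, 20.5% higher and 17.8% lower. Levels in each tumour are drawn in the plot of scaled counts.

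**Figure D1:**
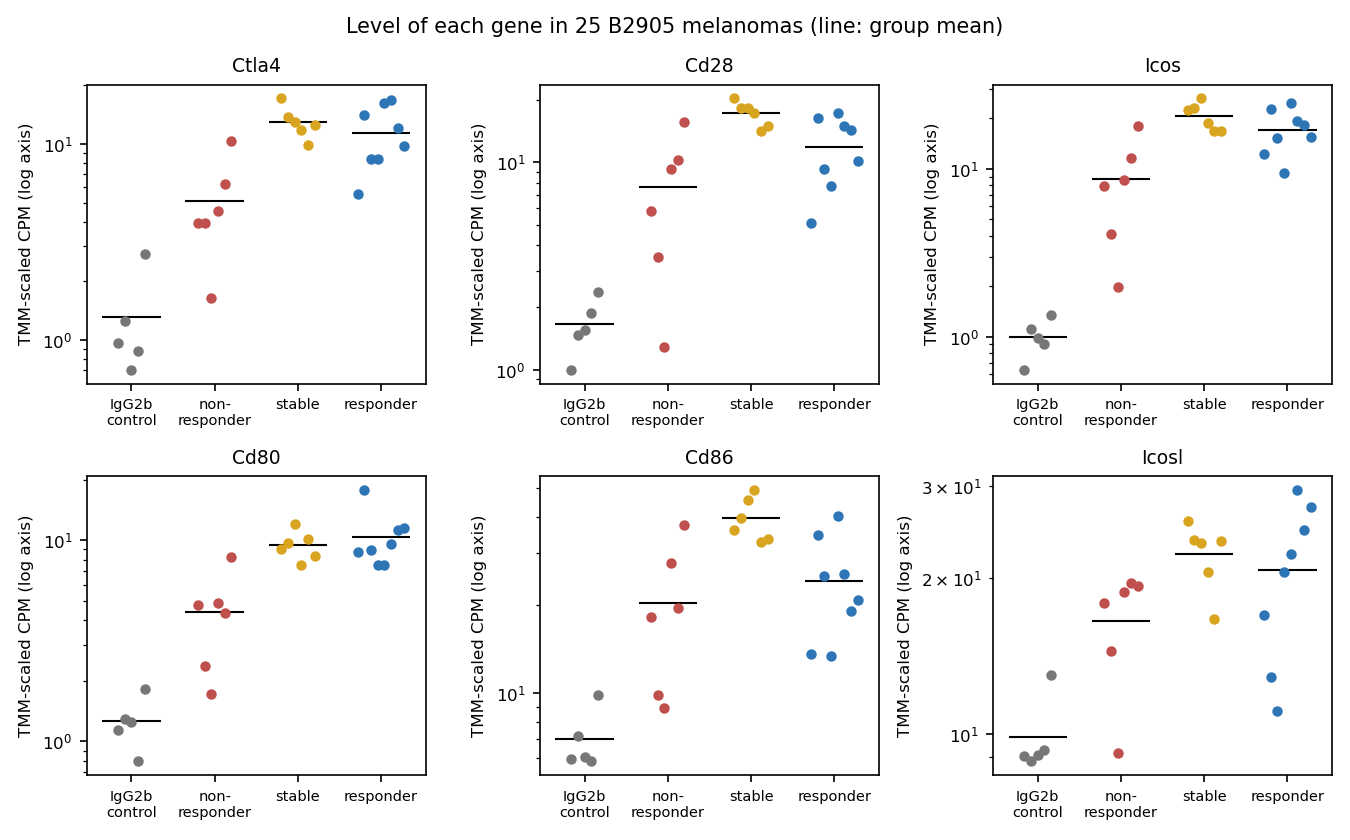
TMM-scaled CPM (log axis) of the 6 genes in each of 25 tumours by group, with the group mean as a line. The control mean is lowest for every gene, Icos separates all 20 anti-CTLA-4 tumours from the 5 controls, and Icosl spans the narrowest range.

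Ctla4, the target of the antibody, stood at 0.967, 1.25, 0.704, 0.877 and 2.74 CPM in controls 1 to 5. It ranged from 1.63 to 10.4 CPM (median 4.25) in non-responders, from 9.87 to 17.1 CPM (median 12.7) in stable tumours and from 5.58 to 16.8 CPM (median 10.9) in responders. Stable tumours and responders lay above every control without overlap, while 1 non-responder fell below control 5. Responder 1, the library with the lowest protein-coding share, was the lowest responder. The log2 fold change over controls was 3.15 (SE 0.39, adjusted p = 7.28e-07) in responders, 3.33 (SE 0.41, adjusted p = 1.49e-06) in stable tumours and 1.99 (SE 0.39, adjusted p = 0.00132) in non-responders. Responders exceeded non-responders by 1.16 (SE 0.33, adjusted p = 0.00669), and stable tumours by 1.34 (SE 0.35, adjusted p = 0.0127). The difference between responders and stable tumours was -0.18 with a 95% interval from -0.83 to 0.47. Fitting the protein-coding share beside the groups gave 1.56 between responders and non-responders (adjusted p = 0.02; 0.000781 to 0.02 over 35 alternatives).

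Cd28, the constitutive activating receptor of T cells, stood at 1.00, 1.47, 1.57, 1.89 and 2.38 CPM in controls 1 to 5. It ranged from 1.29 to 15.6 CPM (median 7.57) in non-responders, from 14.2 to 20.4 CPM (median 17.8) in stable tumours and from 5.13 to 17.3 CPM (median 12.3) in responders. Here 4 stable tumours lay above all responders, and 4 responders lay below all stable tumours. The log2 fold change over controls was 2.85 (SE 0.42, adjusted p = 5.23e-06) in responders, 3.38 (SE 0.44, adjusted p = 2.74e-06) in stable tumours and 2.21 (SE 0.42, adjusted p = 0.00118) in non-responders. Stable tumours exceeded non-responders by 1.17 (SE 0.38, adjusted p = 0.0368). That call was lost in 9 of 35 alternatives (adjusted p up to 0.0947), among them leaving out any of non-responders 1, 2 or 3 or of stable tumours 1 to 4. For responders against non-responders the difference was 0.65 (95% interval -0.08 to 1.38, adjusted p = 0.128). It was called in 4 of 35 alternatives, without non-responder 6 and in the 3 limma fits on RPKM (adjusted p down to 0.0195). Against stable tumours the difference was -0.52 (95% interval -1.23 to 0.19).

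Icos, the inducible receptor, stood at 0.633, 1.11, 0.978, 0.904 and 1.35 CPM in controls 1 to 5. It ranged from 1.98 to 17.9 CPM (median 8.24) in non-responders, from 16.8 to 26.4 CPM (median 20.6) in stable tumours and from 9.50 to 24.6 CPM (median 16.9) in responders. It was the only one of the 6 genes for which all 3 anti-CTLA-4 groups lay above every control. The share of all tested genes that separate from controls in this way was not computed, here or for the other members. The separation is thus not shown to be particular to these genes. The log2 fold change over controls was 4.12 (SE 0.40, adjusted p = 8.57e-08) in responders, 4.39 (SE 0.42, adjusted p = 6.15e-07) in stable tumours and 3.13 (SE 0.40, adjusted p = 0.000303) in non-responders. Responders exceeded non-responders by 0.99 (SE 0.31, adjusted p = 0.0132) and stable tumours exceeded them by 1.25 (SE 0.33, adjusted p = 0.0142). The second call was lost when only those 2 groups were fitted (adjusted p = 0.0591). Responders and stable tumours differed by -0.27 (95% interval -0.90 to 0.36).

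T cell markers rose over controls with the 3 receptors. All 11 measured markers were called higher in each outcome group (36.1% of all genes in responders, 22.2% in stable tumours, 10.6% in non-responders). Their summed level was 11.0 to 34.9 CPM in controls and 30.5 to 250.9 CPM in non-responders. It was 184 to 284 CPM in stable tumours and 124 to 314 CPM in responders. Among outcome groups fewer were called. Higher than in non-responders were 3 of the 11 in responders (25.2% of all genes) and 2 in stable tumours (7.08%). Between responders and stable tumours 0 were called. The 6 regulatory T cell markers also rose over controls in each group, from a sum of 20.6 to 35.2 CPM in controls to 74.3 to 127 CPM in responders. Of these, 4 were called higher in responders than in non-responders, and 1 in stable tumours than in non-responders. No marker of either list was at 0 throughout a group. In bulk tumours, more cells of a type and more RNA per cell cannot be told apart from levels alone.

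Cd80, one of the ligands shared by CD28 and CTLA-4, stood at 1.13, 1.29, 1.25, 0.794 and 1.81 CPM in controls 1 to 5. It ranged from 1.72 to 8.26 CPM (median 4.56) in non-responders, from 7.57 to 12.0 CPM (median 9.33) in stable tumours and from 7.50 to 17.9 CPM (median 9.27) in responders. Only non-responder 6 reached the range of the responders. The log2 fold change over controls was 3.05 (SE 0.32, adjusted p = 1.30e-07) in responders, 2.92 (SE 0.33, adjusted p = 8.37e-07) in stable tumours and 1.81 (SE 0.31, adjusted p = 0.000653) in non-responders. Responders exceeded non-responders by 1.24 (SE 0.27, adjusted p = 0.00101), and stable tumours by 1.10 (SE 0.28, adjusted p = 0.0121). Responders and stable tumours differed by 0.14 (95% interval -0.40 to 0.68).

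Cd86, the other shared ligand, stood at 5.97, 7.15, 6.06, 5.86 and 9.88 CPM in controls 1 to 5. It ranged from 8.94 to 37.6 CPM (median 18.9) in non-responders, from 32.8 to 49.5 CPM (median 37.9) in stable tumours and from 13.4 to 40.2 CPM (median 23.0) in responders. Below every stable tumour lay 6 of the 8 responders, and responder 5 was the highest responder at 40.2 CPM. The log2 fold change over controls was 1.80 (SE 0.31, adjusted p = 3.51e-05) in responders, 2.503 (SE 0.33, adjusted p = 3.25e-06) in stable tumours and 1.54 (SE 0.32, adjusted p = 0.00218) in non-responders. Stable tumours exceeded non-responders by 0.96 (SE 0.30, adjusted p = 0.0314). That call was lost in 9 of 35 alternatives (adjusted p up to 0.0825), among them leaving out any of non-responders 1, 2, 3 or 5 or of stable tumours 2, 3 or 4. Responders and non-responders differed by 0.25 (95% interval -0.32 to 0.82). In responders Cd86 was lower than in stable tumours by a log2 difference of -0.71 (SE 0.27, adjusted p = 0.0447), a call lost in 19 of 35 alternatives. Fitting the protein-coding share beside the groups left -0.24 (adjusted p = 0.757; 0.0126 to 0.757 over the alternatives). Leaving out control 2, any responder but 2 and 5, or any stable tumour but 6 also ended it. In the same tumours, summed macrophage and monocyte markers ranged from 1363 to 2232 CPM in stable tumours and from 714 to 1949 CPM in responders. Of the 8, 4 were called lower in responders, where 17.8% of all genes were, and 1, the efferocytosis receptor Mertk, was called higher (log2 fold change 0.38, adjusted p = 0.0415). Summed dendritic cell markers were 322 to 452 CPM and 222 to 442 CPM in the same groups. The part of these cells in the difference was not tested.

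Icosl, the ligand of ICOS, stood at 9.07, 8.84, 9.12, 9.31 and 13.0 CPM in controls 1 to 5. It ranged from 9.20 to 19.5 CPM (median 18.3) in non-responders, from 16.6 to 25.7 CPM (median 23.4) in stable tumours and from 11.1 to 29.6 CPM (median 21.4) in responders. Only the stable group lay above every control, since control 5 reached into the responders and controls 4 and 5 into the non-responders. The log2 fold change over controls was 1.07 (SE 0.21, adjusted p = 0.000157) in responders and 1.17 (SE 0.22, adjusted p = 0.000171) in stable tumours. In non-responders it was 0.74 (SE 0.22, adjusted p = 0.0262), and that call was lost in 11 of 35 alternatives (adjusted p up to 0.0774). Leaving out any of controls 1 to 4 or non-responders 4 to 6 ended it. Differences among outcome groups were 0.33 between responders and non-responders (95% interval -0.08 to 0.73), 0.43 between stable tumours and non-responders (0.00 to 0.86) and -0.10 between responders and stable tumours (-0.51 to 0.30). None was called. Markers of cell types known to make ICOS ligand moved as well. Against controls, 8 of 10 dendritic cell markers were called higher in responders, 8 in stable tumours and 5 in non-responders. Of 8 macrophage and monocyte markers it was 7, 7 and 5, and of 6 fibroblast markers 4, 6 and 5. Of all genes 36.1, 22.2 and 10.6% were called higher in these comparisons. In responders 1 dendritic cell marker was called lower. Summed B cell markers, 6 genes, were 4.05 to 9.00 CPM in controls, 6.57 to 44.6 CPM in non-responders, 34.7 to 57.7 CPM in stable tumours and 18.7 to 60.2 CPM in responders. All 6 rose over controls in responders and stable tumours and 3 in non-responders. Summed endothelial markers, 5 genes, were 124 to 180 CPM in controls, 130 to 258 CPM in non-responders, 72.7 to 129 CPM in stable tumours and 38.6 to 93.6 CPM in responders. Against controls 4 were called lower in responders, 3 in stable tumours and 0 in non-responders, where Icosl was higher too. Of all genes 28.9, 19.6 and 3.29% were called lower there. No marker of these lists was at 0 in every tumour of a group, and their part in the Icosl levels was not tested.

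To part T cell number from level per T cell, each gene was next read per count of Cd3e, a chain of the CD3 complex found on T cells. Per Cd3e count Ctla4 was called in no comparison. In controls 1 to 5 its ratio was 1.93, 0.63, 0.529, 0.97 and 1.29. It ranged from 0.479 to 1.23 in non-responders, 0.769 to 1.53 in stable tumours and 0.481 to 1.10 in responders. All groups overlapped, although 7 of the 8 responders lay below every stable tumour. This depended on Cd3e. Against a sum of 7 T cell genes without Cd3e, chosen after seeing the data, 6 of the 8 responders lay above every stable tumour and 1 below. Responders differed from stable tumours by 0.24 against that sum and by -0.66 per Cd3e (log2), neither called. Per Cd3e, the log2 difference from controls was -0.68 in responders (95% interval -1.58 to 0.23), -0.02 in stable tumours (-0.99 to 0.95) and -0.35 in non-responders (-1.32 to 0.62).

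Cd28 per Cd3e was 2.00, 0.741, 1.18, 2.09 and 1.12 in controls 1 to 5 and 0.442 to 1.18 (median 0.635) in responders. Below every control lay 6 of the 8 responders. The log2 difference was -1.03 (SE 0.44, adjusted p = 0.0235), which was lost in 6 of 32 alternatives (adjusted p up to 0.302), among them leaving out control 1 or control 4 and each of the other T cell references. Icos per Cd3e was 1.27, 0.556, 0.735, 1.00 and 0.634 in controls 1 to 5 and 1.01 to 2.44 (median 1.57) in stable tumours, 4 of which lay above every control. The log2 difference was 1.04 (SE 0.48, adjusted p = 0.0363), lost in 10 of 32 alternatives (adjusted p up to 0.204), among them leaving out any of controls 2, 3 or 5 or of stable tumours 2, 3 or 4. Cd80 per Cd3e was called in no comparison, with log2 differences from controls of -0.84 in responders, -0.50 in stable tumours and -0.60 in non-responders.

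Cd86 per Cd3e was 11.9, 3.59, 4.56, 6.48 and 4.66 in controls 1 to 5 and 0.807 to 2.75 (median 1.25) in responders, without overlap. The log2 difference was -2.10 (SE 0.46, adjusted p = 2.66e-05). Icosl per Cd3e was 18.1, 4.44, 6.85, 10.3 and 6.12 in controls 1 to 5. The 8 responders held 0.624 to 1.74 and the 6 stable tumours 1.16 to 2.68, both below every control, while the 6 non-responders held 1.61 to 6.90. The log2 differences were -2.89 (SE 0.46, adjusted p = 6.10e-08), -2.34 (SE 0.50, adjusted p = 2.25e-05) and -1.52 (SE 0.49, adjusted p = 0.00454). These ligands are made mainly by cells other than T cells, so per Cd3e they compare different cells. The median of all genes fell further than Cd86 or Icosl, with -3.80 in responders, -3.50 in stable tumours and -1.95 in non-responders against controls. The share of all genes that separate from controls per Cd3e was not computed, so the separation is not shown to be particular to these genes. Against non-responders, Cd86 fell by 1.24 (adjusted p = 0.00864) and Icosl by 1.38 (adjusted p = 0.00373) in responders.

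The members called per Cd3e must be read against the fall of most genes on that scale. Against controls, 3 of 6 genes were called in responders, 2 in stable tumours and 1 in non-responders, where 92.2, 92.8 and 86.5% of all genes were called. The called genes were lower for 91.8, 92.3 and 86.4% of all genes and higher for 0.311, 0.433 and 0.111%. In responders against non-responders 2 of 6 were called, where 75.5% of all genes were, 74.6% lower and 0.893% higher. In stable tumours against non-responders 0 of 6 were called, where 71.2% of all genes were, 70.9% lower and 0.316% higher. In responders against stable tumours 0 of 6 were called, where 1.18% of all genes were, 0.383% lower and 0.793% higher. Before adjustment, edgeR's test put 0 genes of 6 under 0.05 in the former comparison and 2 in the latter, Cd86 (log2 difference -1.24, adjusted p = 0.12) and Cd28 (-1.03, adjusted p = 0.168). With only those 2 groups fitted, 3 of 6 were called in responders against stable tumours, Cd86, Cd28 and Icos (-0.74), all lower in responders. The share of all genes called in that fit was not computed, so 1.18% is not its background. With all groups fitted, Icos turned positive with Cd2 (0.08) and with the 7-gene sum (0.18) in place of Cd3e. The median log2 difference of all genes was -3.80, -3.50 and -1.95 in responders, stable tumours and non-responders against controls. The increase of Icos in stable tumours was the only upward call among the members, where 0.433% of all genes were called higher. In that comparison the 10 T cell markers tested had a median log2 difference of 0.43, with 0 called.

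**Figure D2:**
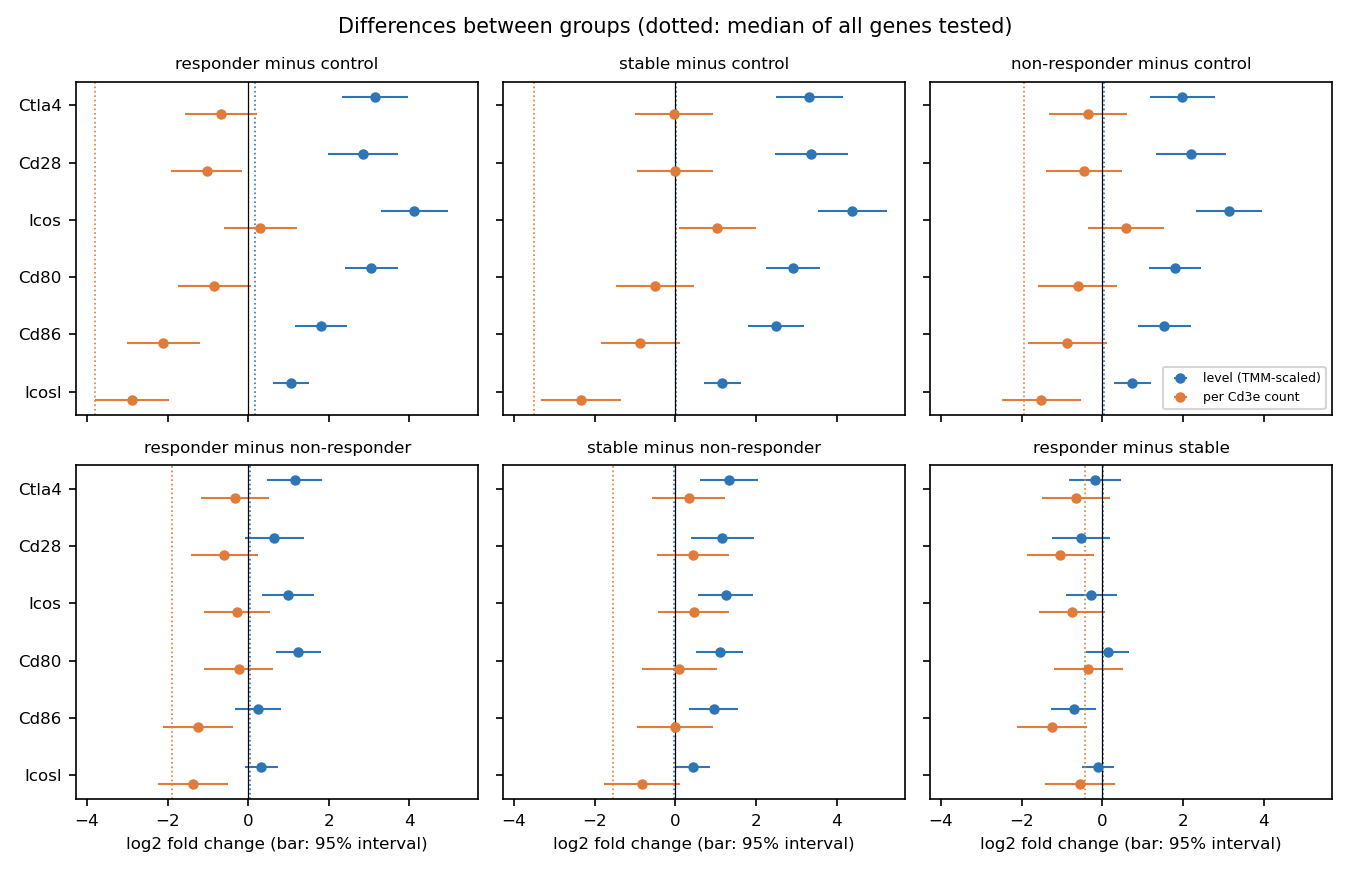
Log2 fold changes of the 6 genes with 95% intervals in the 6 comparisons, as levels (blue) and per Cd3e count (orange). Dotted lines give the median of all genes tested, which lies near 0 for levels and at -3.80 per Cd3e count in responders minus control.

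Cd3e did not move in step with the other CD3 genes. Its count over the sum of Cd3d and Cd3g was 0.231 to 0.711 in controls, 0.199 to 0.492 in non-responders and 0.225 to 0.473 in stable tumours. In responders it was 0.654 to 1.29, except in responder 5, where it was 0.234. Cd3e was called higher in responders than in non-responders (log2 fold change 1.27, adjusted p = 0.0067), while Cd3d (0.51, adjusted p = 0.362) and Cd3g (0.28, adjusted p = 0.57) were not called. Responder 5 is also the responder with a protein-coding share in the range of the other groups. Whether library composition has a part in the Cd3e values was not tested.

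The choice of the T cell reference therefore changed results. With the sum of Cd3d, Cd3e and Cd3g, with Cd2, or with a sum of 7 T cell genes without Cd3e chosen after seeing the data, no member was called in responders against non-responders. Ctla4 then differed by 0.29, 0.20 and 0.45, and Icos by 0.32, 0.22 and 0.46, where per Cd3e the values were -0.33 and -0.29. The increase of Icos in stable tumours over controls was 0.64, 0.55 and 0.51 with those references, and not called (adjusted p = 0.151, 0.167 and 0.204). Lower Icosl in all 3 outcome groups and lower Cd86 in responders against controls were called with each reference. Lower Cd86 in stable tumours and in non-responders was also called with each of them except Cd3e alone (adjusted p = 0.0866 and 0.0928 in edgeR's test per Cd3e). Cd80 was called lower than in controls in stable tumours with Cd2 and the 7-gene sum, and in non-responders with the 7-gene sum. The reference Cd2 itself rose over controls, by 3.46 in responders, 3.74 in stable tumours and 2.61 in non-responders (log2). Icosl, Cd86 and Cd80 each rose less in the same groups, and a gene that rises less than its reference falls on such a scale. The shares of all genes called, or separated from controls, with references other than Cd3e were not computed. The direction of Ctla4 against controls was negative in responders and non-responders with each reference, and never called. Against that 7-gene sum, Cd28 ranged from 7.41 to 11.9% in non-responders and from 12.1 to 34.3% in controls, without overlap, but the difference was not called (log2 difference -0.79, adjusted p = 0.0587).

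**Figure D3:**
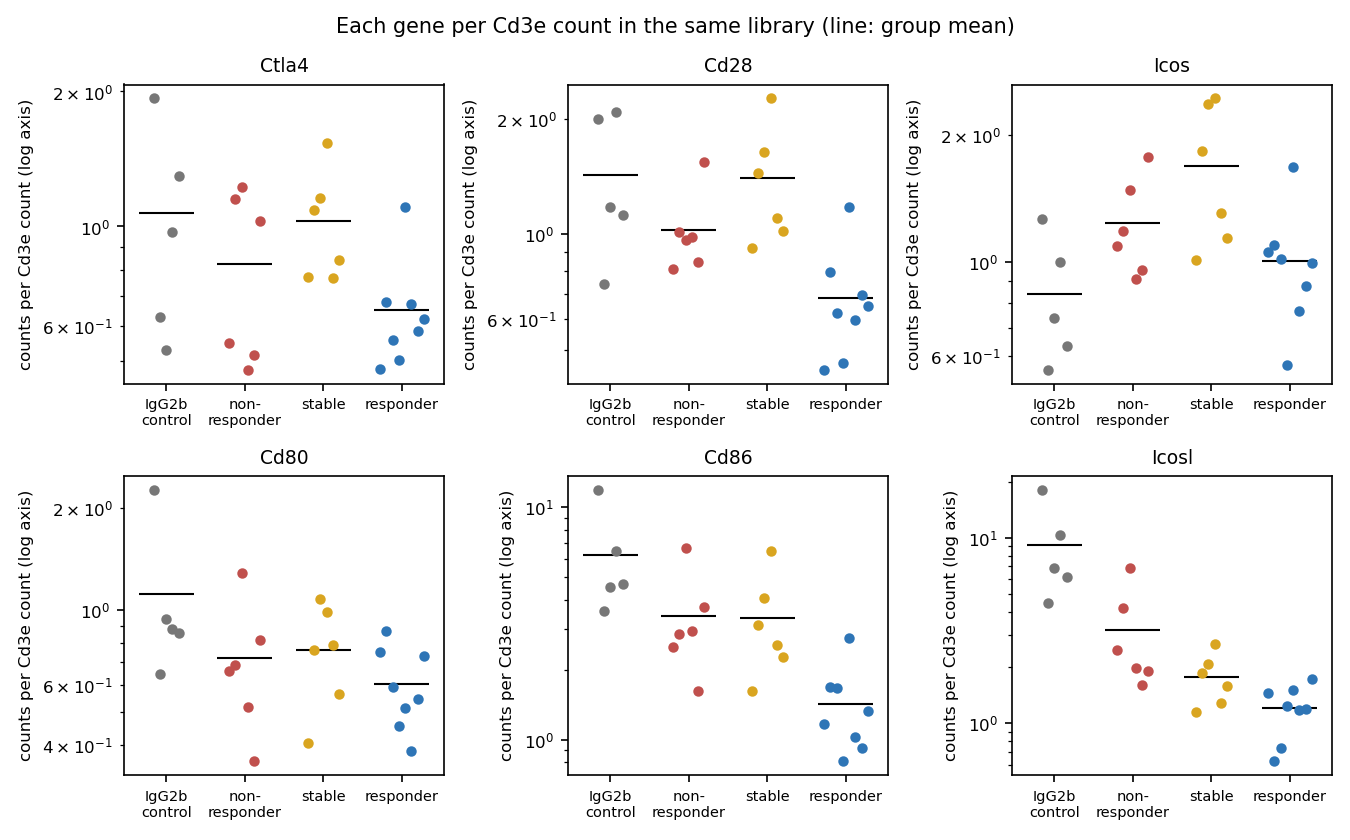
Counts of each gene per Cd3e count (log axis) in each of 25 tumours by group, with the group mean as a line. Ctla4 overlaps in all groups, while Cd86 and Icosl in the 8 responders lie below all 5 controls. The share of all genes that separate in this way was not computed.

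Ratios between the genes do not depend on Cd3e or on library size. Of 54 two-sided exact permutation tests (9 ratios in 6 comparisons, adjusted together), the ratio of Icos to Cd28 differed most regularly from controls. It was 0.633, 0.75, 0.625, 0.478 and 0.565 in controls 1 to 5. Its range was 0.926 to 1.53 in non-responders, 1.08 to 1.45 in stable tumours and 1.24 to 2.39 in responders. No anti-CTLA-4 tumour overlapped the controls. Responders differed from controls by 1.28 on the log2 scale (exact p = 0.000777, adjusted p = 0.014), 0.97 in stable tumours (exact p = 0.00216, adjusted p = 0.0167) and 0.97 in non-responders (exact p = 0.00216, adjusted p = 0.0167). These are the smallest exact p values the group sizes allow, and the calls were kept in all 27 alternatives. Differences among the outcome groups were 0.31 or less and not called.

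Ctla4 to Icos was lower than in controls in each outcome group. Controls ranged from 0.72 to 2.04, non-responders from 0.505 to 0.968, stable tumours from 0.489 to 0.762 and responders from 0.455 to 0.882, so each group overlapped the controls. The log2 difference was -0.87 in responders (exact p = 0.00311, adjusted p = 0.0186), -0.93 in stable tumours (exact p = 0.00649, adjusted p = 0.025) and -0.91 in non-responders (exact p = 0.013, adjusted p = 0.0351). The stable call was lost without any of stable tumours 2 to 5 (adjusted p up to 0.0619). The non-responder call was lost in 9 of 27 alternatives (adjusted p up to 0.0816), those without control 1, 2, 4 or 5, non-responder 1, 4, 5 or 6, or stable tumour 2.

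Ctla4 to Cd28 separated responders from stable tumours. It ranged from 0.843 to 1.13 (median 0.948) in responders and from 0.677 to 0.839 (median 0.731) in stable tumours, without overlap. The closest pair, responder 7 at 0.843 and stable 1 at 0.839, differed by less than the spread of either group. On the log2 scale the groups differed by 0.37 (exact p = 0.000666, adjusted p = 0.014) and was called in all 27 alternatives. Responder 5, at 0.935, lay among the other responders. Non-responders ranged from 0.487 to 1.27 and controls from 0.45 to 1.15, overlapping both.

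Ctla4 and Icos were also set against Foxp3, the factor that defines regulatory T cells. From counts, Ctla4 to Foxp3 was called in no comparison, with log2 differences between -0.35 and 0.49 and 0 of the 6 under an unadjusted exact p of 0.05. Icos to Foxp3 was higher than in controls in responders (0.97, exact p = 0.00699, adjusted p = 0.0252) and stable tumours (1.38, exact p = 0.00433, adjusted p = 0.0195). The first call was lost without control 5 (adjusted p up to 0.0671) and the second without stable tumour 2, 4 or 5 (adjusted p up to 0.0504). Foxp3 counts were low, at 8 to 35 in controls. Deposited RPKM of Foxp3 per count, relative to Ptprc, varied 19.0-fold between tumours, against 1.19 to 1.81-fold for the 6 genes, so the 2 tables do not give the same ratios to Foxp3. With deposited RPKM, Ctla4 to Foxp3 was called higher than in controls in responders (log2 difference 2.04, permutation test, adjusted p = 0.0105), stable tumours (2.51, adjusted p = 0.0105) and non-responders (1.31, adjusted p = 0.0213). Stable tumours against non-responders gave 1.197 (adjusted p = 0.0213), also called. Icos to Foxp3 was larger on that scale too, 2.74 in responders, 3.35 in stable tumours and 2.12 in non-responders over controls, each called. Leaving out control 1 or non-responder 6 gave a call from counts as well, the first in stable tumours against controls and the second in stable tumours against non-responders.

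Among ligands, Cd80 to Cd86 was higher in responders than in every other group. It was 0.19, 0.18, 0.206, 0.136 and 0.183 in controls 1 to 5. Its range was 0.176 to 0.263 in non-responders and 0.153 to 0.308 in stable tumours. In 7 responders it was above all of these, and in responder 5 it was 0.187, inside them. On the log2 scale responders differed by 1.03 against non-responders (exact p = 0.00433, adjusted p = 0.0195), 0.89 against stable tumours (exact p = 0.00866, adjusted p = 0.0275) and 1.31 against controls (exact p = 0.00311, adjusted p = 0.0186). The call against stable tumours was lost without stable tumour 2 or 4 (adjusted p up to 0.0587). The one responder without the higher ratio is the one whose protein-coding share matches the other groups, and the part of library composition in this ratio was not tested.

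Ptprc, the CD45 gene of white blood cells, itself rose over controls. Its log2 fold change was 2.67 in responders, 2.92 in stable tumours and 1.85 in non-responders. The median of all genes was 0.16, 0.02 and 0.04, so a gene of unchanged level falls relative to Ptprc. Against Ptprc, Cd80 was called in no comparison. Cd86 as a percent of the Ptprc count was 12.8, 9.82, 11.2, 11.4 and 10.1 in controls 1 to 5, 7.59 to 10.6 in non-responders, 7.20 to 9.90 in stable tumours and 4.08 to 8.22 in responders. Responders did not overlap the controls (log2 difference -0.97, exact p = 0.00155, adjusted p = 0.0167). They were also lower than non-responders (-0.65, exact p = 0.00366, adjusted p = 0.0195). The differences from stable tumours (-0.52, exact p = 0.012, adjusted p = 0.0341) and of stable tumours from controls (-0.45, exact p = 0.00649, adjusted p = 0.025) were lost in 10 and 2 of 27 alternatives. The first was lost with deposited RPKM values and without responder 1, 4, 6, 7 or 8 or stable tumour 2, 4, 5 or 6 (adjusted p up to 0.0725), the second without stable tumour 2 or 5 (adjusted p up to 0.0504).

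Icosl as a percent of the Ptprc count was 19.5, 12.1, 16.8, 18.0 and 13.3 in controls 1 to 5. It ranged from 4.32 to 12.3 in non-responders, from 3.71 to 5.72 in stable tumours and from 2.57 to 7.67 in responders. Responders and stable tumours lay below every control, with log2 differences of -1.68 (exact p = 0.000777, adjusted p = 0.014) and -1.78 (exact p = 0.00216, adjusted p = 0.0167). Non-responders were lower by a log2 difference of -0.99 (exact p = 0.0108, adjusted p = 0.0325). Stable tumours lay below non-responders (-0.79, exact p = 0.00866, adjusted p = 0.0275), a call lost without non-responder 2 or stable tumours 2, 3, 4 or 5 (adjusted p up to 0.0587). Icosl thus rose as a level while falling relative to Ptprc, which itself rose more. These falls therefore do not show less Icosl RNA per white blood cell that makes it.

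**Figure D4:**
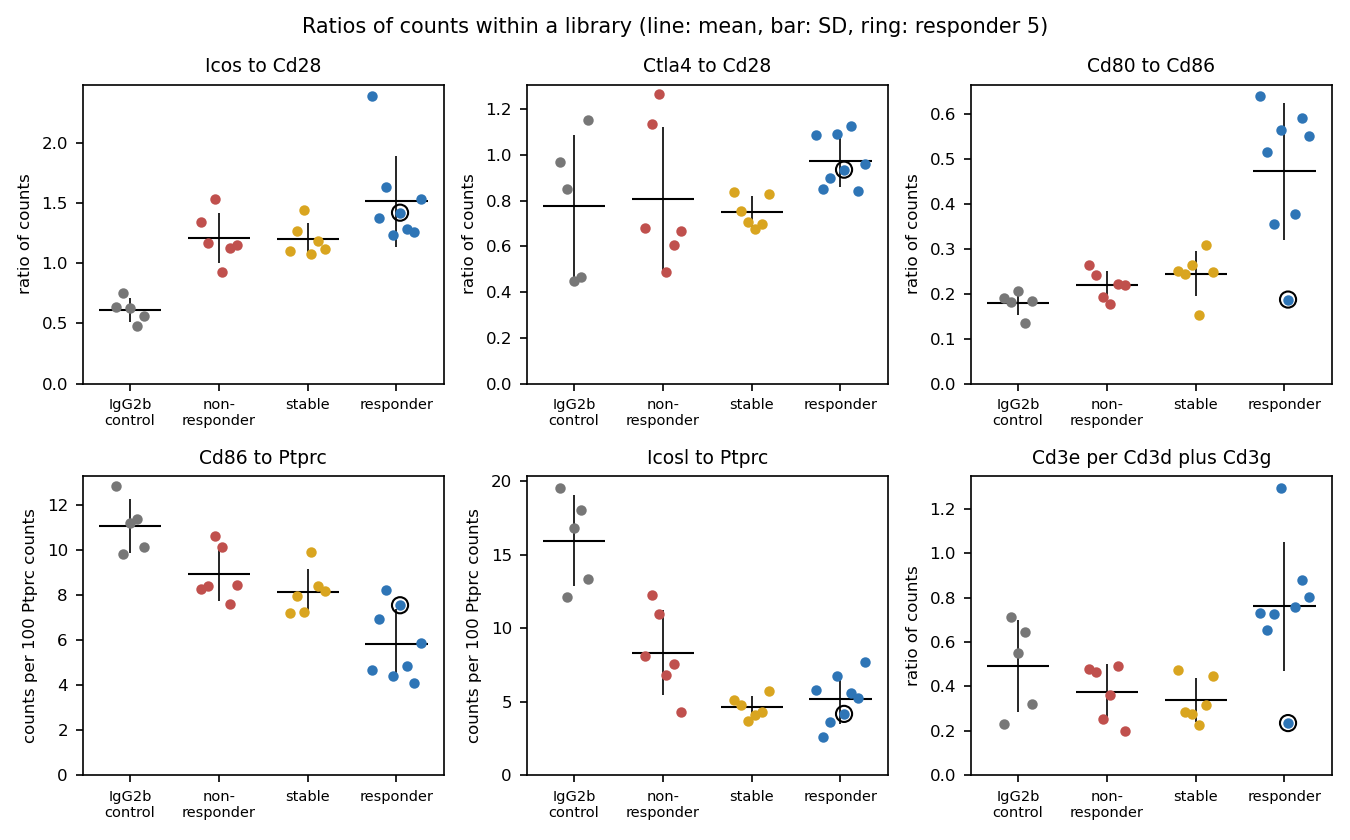
Ratios of counts within a library by group, with mean and SD, and responder 5 ringed. Icos to Cd28 is 0.478 to 0.75 in controls and at least 0.926 elsewhere, and responder 5 leaves the other responders for Cd80 to Cd86 and for Cd3e per Cd3d plus Cd3g.

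Levels of different genes were compared only as deposited RPKM, which divides by gene length. In controls the order of mean RPKM was Icosl (3.33 ± 0.678, SD, n = 5), Cd86 (2.35 ± 0.608), Ctla4 (0.644 ± 0.419), Cd80 (0.586 ± 0.118), Cd28 (0.422 ± 0.132) and Icos (0.313 ± 0.0928). Icosl exceeded Cd86, Cd86 exceeded Ctla4, and Cd28 exceeded Icos in 5 of 5 controls, while Ctla4 exceeded Cd80 in 2 of 5. In responders Cd86 (8.37 ± 2.92, SD, n = 8) and Icosl (7.71 ± 2.90) led, followed by Ctla4 (6.04 ± 2.08), Icos (5.73 ± 1.55), Cd80 (4.03 ± 1.28) and Cd28 (3.19 ± 1.14). Cd86 exceeded Icosl in 3 of 8 responders and Ctla4 exceeded Icos in 4 of 8, so these neighbours are not ordered beyond their spread.

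In stable tumours Cd86 led at 12.5 ± 1.94 RPKM (SD, n = 6), above Icosl (7.30 ± 1.26) in 6 of 6, and Icos (6.26 ± 1.09) and Ctla4 (5.87 ± 1.21) followed. Cd28 (4.06 ± 0.562) and Cd80 (3.27 ± 0.353) were lowest. In non-responders Cd86 (6.75 ± 3.43, SD, n = 6) exceeded Icosl (5.76 ± 1.51) in 2 of 6. Icos (2.78 ± 1.66), Ctla4 (2.52 ± 1.34), Cd28 (1.84 ± 1.21) and Cd80 (1.63 ± 0.715) followed. Icos was lowest of the 6 genes in controls and above Cd28 and Cd80 in the mean of each outcome group.

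**Figure D5:**
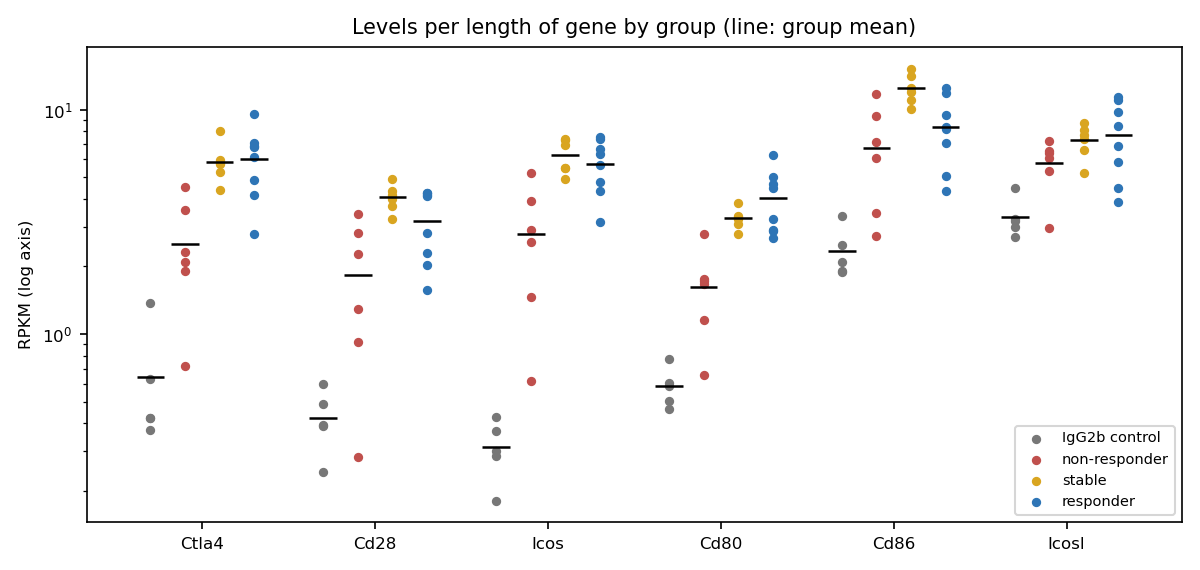
Deposited RPKM (log axis) of the 6 genes by group, with a line at the group mean. Icosl and Cd86 are highest in controls, where Icos is lowest at 0.313.

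Genes that act with these receptors were read from lists chosen with earlier results of these data known. For each comparison, the shares of all genes called are the background for these counts. Of 20 tested genes of CD28 and T cell receptor signalling, 13 rose and none fell in non-responders over controls (10.6% and 3.29% of all genes), with a median log2 fold change of 1.08 against 0.04 for all genes. In responders over controls 15 rose and 2 fell (36.1% and 28.9% of all genes), and in stable tumours 16 rose and 2 fell (22.2% and 19.6%). Lck, the kinase that starts the receptor signal, rose in all 3 comparisons (log2 fold change 3.51 in responders, 3.55 in stable tumours and 2.59 in non-responders). Nfatc2 fell in responders (-1.14) and stable tumours (-1.37). In responders over non-responders 14 rose, among them Malt1 (1.30), a protease of the NF-kappaB branch, and Akt1 fell (-0.44), against 25.2% and 23.8% of all genes. In stable tumours over non-responders 11 rose, Malt1 by 1.14 among them, and Nfatc2 fell (-0.90), against 7.08% and 7.86% of all genes. Between responders and stable tumours 0 rose and 2 fell, Bcl10 (-0.39) and Grb2 (-0.37), no more than the background of 20.5% and 17.8%.

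Of 10 genes of CTLA-4 trafficking and its phosphatases, 2 rose and 6 fell in responders over non-responders (25.2% and 23.8% of all genes). Those that rose were Trat1, an adaptor that carries CTLA-4 to the surface (1.31, adjusted p = 0.012), and Def6, a partner in CTLA-4 recycling (0.68, adjusted p = 0.00157). The lowest were the PP2A subunits Ppp2ca (-0.60) and Ppp2r1a (-0.59). The same counts of 2 and 6 were found in responders over controls (36.1% and 28.9% of all genes), where Trat1 rose by 3.90. In stable tumours over controls 3 rose and 3 fell (22.2% and 19.6%), in non-responders 1 rose and none fell (10.6% and 3.29%), and in stable tumours over non-responders 2 rose and none fell (7.08% and 7.86%). With lists of 10 genes, the number that rose is near or below the background in all but the last of these comparisons. In responders against stable tumours, where 20.5% of all genes were called higher and 17.8% lower, 6 fell, Ptpn6 by the most (-0.86), and Lrba, which protects CTLA-4 from degradation, rose (0.40). For all genes the median log2 fold change was 0.05 in responders over non-responders, and for this list it was -0.36.

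Of 10 genes tied to ICOS, 6 rose and 1 fell in responders over controls (36.1% and 28.9% of all genes), 6 rose in stable tumours (22.2%) and 3 in non-responders (10.6%). Il21, a cytokine of helper T cells that depend on ICOS, rose by 5.46, 4.92 and 3.90, and Cxcr5, their homing receptor, by 3.35, 3.17 and 2.29. In responders over non-responders Il21 (1.57), Bcl6 (0.98) and Tbk1 (0.22) rose and Adam10, a protease that sheds ICOS ligand, fell (-0.37), counts near the background of 25.2% and 23.8%. In stable tumours over non-responders Bcl6 (0.75), Adam17 (0.57) and Tbk1 (0.28) rose, against 7.08% of all genes. Between responders and stable tumours Adam17 (-0.54) and Adam10 (-0.33) fell, near the background of 17.8%.

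Over the 25 tumours, the level most like that of Ctla4 and of Icos was Ptprc (Pearson r of log2 CPM 0.979 and 0.988 across 13183 genes compared). For Cd28 it was Ikzf1 (0.980), for Cd80 Csf2rb (0.981), for Cd86 Lcp1 (0.985) and for Icosl Fgd2 (0.949). The tumours share the group differences and the library composition described above, so these values are descriptions. After subtracting group means, Cd28 was closest to Icos (r = 0.948), and Icosl remained closest to Fgd2 (r = 0.903). Ctla4 was then closest to Gpr174 (0.915), Icos to Rassf5 (0.951), Cd80 to Map3k8 (0.882) and Cd86 to Ccl5 (0.959). Icosl stood apart from the ligand pair, with r = 0.316 to Cd86 and 0.344 to Cd80, where Cd80 and Cd86 had r = 0.709.

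Within 500 kb of Ctla4, 28 genes are annotated and 8 were tested. Of the protein-coding neighbours beyond Cd28, Cyp20a1 and Abi2 fell in responders and stable tumours over controls, and Raph1 rose in responders. Cyp20a1 had log2 fold changes over controls of -1.08 in responders (adjusted p = 1.12e-05), -0.58 in stable tumours (adjusted p = 0.0123) and -0.40 in non-responders (adjusted p = 0.147). Abi2 had -0.96 in responders (adjusted p = 3.16e-06), -0.65 in stable tumours (adjusted p = 0.000928) and -0.37 in non-responders (adjusted p = 0.0951). Raph1 had 1.67 in responders (adjusted p = 0.000295), 0.89 in stable tumours (adjusted p = 0.0502) and 0.71 in non-responders (adjusted p = 0.193).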

How the data were processed

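RNA was read from 25 tumours. The submitters' processing notes name bcl2fastq 2.17, Trimmomatic, STAR 2.5.1, RSEM 1.2.22 and the build mm10, with no role or order. The authors deposited estimated counts per gene (expected counts, not normalized, 5.64% of values not whole), rounded here to whole numbers. The authors also deposited RPKM values. Their denominator is not given in the sources used here, but it followed protein-coding counts (coefficient of variation 2.18%, against 17.6% for total counts, over 8331 genes). All 55450 gene identifiers matched GENCODE M21 (GRCm38). The labels name a stranded total RNA kit and also polyA RNA, which was not resolved. Replicates of a group all differed by more than sampling noise (chi-square per gene of at least 18.9).

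Levels were tested with edgeR 4.0.16 in R 4.3.3 (TMM, filterByExpr by group, 18031 genes, 4 group means over all tumours, robust quasi-likelihood F test, Benjamini-Hochberg adjustment, called under 0.05). A second fit used the Cd3e count plus 0.5 as library size (18030 genes). Both were tested on simulated data. The simulation of the second fit used a reference count without error, so it did not cover noise in the Cd3e counts. Ratios used log2 of counts plus 0.5 and two-sided exact permutation tests, adjusted over 54 tests. Depth limits precision where counts are few, with 15 to 54 Cd3e counts and 18 to 53 Ctla4 counts in controls. P-values measure the spread between tumours of separate animals.

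Alternatives were DESeq2 1.42.0, limma 3.58.1 on RPKM and on count ratios, RLE size factors, other filters, protein-coding genes only, the protein-coding share as a covariate, only the 2 groups compared, other T cell references, a pseudocount of 2, and each tumour left out. By the rule for naming genes, named were the 6 genes, Cd3e, Foxp3 and Ptprc, up to 4 called genes of each list by highest and lowest fold change, the 3 genes most alike to each member (text: the first) and genes within 500 kb of Ctla4. Cd3d and Cd3g were named after their values were seen. Some genes that the rule names are not reported here, though they count in their list's totals. The members and lists were chosen with earlier results of these data known.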

Additional observations from a re-analysis of the deposited data

Results flagged for a closer look

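In 112 sets of values, each of 1 measure in 1 group, 7 held a tumour far from the others of its group, where chance flags about 1 in 20 sets. Icosl in control 5 was 12.99 CPM, with the other controls between 8.843 and 9.314 CPM. Responder 5 stood apart in 3 measures, which are not independent because each contains its Cd3e count. Its Ctla4 per Cd3e was 1.104 (other responders 0.4808 to 0.6779), its Ptprc per Cd3e was 36.41 (18.33 to 25.12), and its Cd3e per Cd3d plus Cd3g was 0.2342 (0.6535 to 1.293). Cd28 per Cd3e in non-responder 6 was 1.545, with the other non-responders between 0.809 and 1.012. Icos to Cd28 in responder 1 was 2.391, with the other responders between 1.236 and 1.632. That library had the fewest protein-coding counts by share, 23.8%, and its ratio rests on 55 Icos and 23 Cd28 counts. Cd80 to Cd86 in stable tumour 4 was 0.1529, with the other stable tumours between 0.2435 and 0.308.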

How the results depend on the processing

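Of 3870 pairs of a value (126 in all) and an alternative, 113 changed sign, 108 lost a call and 49 gained one. The sign changed for a value called in either setting once, Ctla4 to Foxp3 in non-responders against controls with deposited RPKM values. The cause was not tested. Low counts limit the values per T cell, with 15 to 54 Cd3e and 18 to 53 Ctla4 counts in controls and 52 Cd3e, 25 Ctla4 and 23 Cd28 counts in responder 1. No paired analysis was possible because the labels give each tumour its own animal number and replicates were numbered in accession order only.

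Given next are counts of genes or log2 differences. The shares of all genes called were not computed for these alternatives, so the counts of genes called have no background here. With Cd2 as the T cell reference, the genes called of 6 were 2 in non-responders against controls (per reference), 0 in responders against non-responders (per reference), 1 in stable tumours against non-responders (per reference). Under it, stable tumours against controls gave Cd28 per reference -0.50. Likewise, responders against non-responders gave Cd80 per reference 0.40, Ctla4 per reference 0.20, Icos per reference 0.22. In turn, responders against stable tumours gave Cd80 per reference 0.56, Ctla4 per reference 0.12, Icos per reference 0.0801, Icosl per reference 0.30. Also, stable tumours against non-responders gave Cd80 per reference -0.16. With the 7-gene T cell sum, chosen after seeing the data, the genes called of 6 were 3 in non-responders against controls (per reference), 0 in responders against non-responders (per reference), 1 in stable tumours against non-responders (per reference). Under it, responders against non-responders gave Cd28 per reference 0.15, Cd80 per reference 0.63, Ctla4 per reference 0.45, Icos per reference 0.46. Likewise, stable tumours against controls gave Cd28 per reference -0.52. In turn, responders against stable tumours gave Cd80 per reference 0.66, Ctla4 per reference 0.24, Icos per reference 0.18, Icosl per reference 0.39. Also, stable tumours against non-responders gave Cd80 per reference -0.0298. With the sum of Cd3d, Cd3e and Cd3g, the genes called of 6 were 2 in non-responders against controls (per reference), 0 in responders against non-responders (per reference), 1 in stable tumours against non-responders (per reference). Under it, responders against non-responders gave Cd28 per reference 0.0142, Cd80 per reference 0.48, Ctla4 per reference 0.29, Icos per reference 0.32. Likewise, stable tumours against controls gave Cd28 per reference -0.41. In turn, responders against stable tumours gave Cd80 per reference 0.48, Ctla4 per reference 0.0615, Icosl per reference 0.24. With the protein-coding share fitted beside the groups, the genes called of 6 were 1 in responders against non-responders (per Cd3e), 0 in responders against stable tumours (level). Under it, stable tumours against non-responders gave Cd86 per Cd3e 0.000901. Likewise, responders against stable tumours gave Ctla4 0.24, Icos 0.0179. In turn, responders against non-responders gave Ctla4 per Cd3e 0.0439. Also, stable tumours against controls gave Ctla4 per Cd3e 0.00806. With only the 2 groups compared, the genes called of 6 were 3 in responders against stable tumours (per Cd3e), 2 in stable tumours against non-responders (level). With limma on RPKM ratios, the genes called of 6 were 1 in stable tumours against controls (per Cd3e). That setting also gave, in stable tumours against controls, Cd28 per Cd3e -0.19; in stable tumours against non-responders, Cd80 per Cd3e -0.00105. With limma on log2(RPKM + 0.1), the genes called of 6 were 0 in responders against stable tumours (level). That setting also gave, in responders against stable tumours, Icosl 0.000201. With limma on log2(RPKM + 1), the genes called of 6 were 0 in responders against stable tumours (level). That setting also gave, in responders against stable tumours, Icosl 0.00853. With limma on log2(RPKM + 1) at a mean RPKM of at least 0.1, the genes called of 6 were 0 in responders against stable tumours (level). That setting also gave, in responders against stable tumours, Icosl 0.00853. With no filter on low counts, the genes called of 6 were 0 in responders against stable tumours (level), 3 in stable tumours against non-responders (level). With protein-coding genes only, the genes called of 6 were 0 in responders against stable tumours (level). With a stricter filter on low counts, the genes called of 6 were 0 in responders against stable tumours (level). That setting also gave, in responders against stable tumours, Icosl 0.000232. With deposited RPKM values, non-responders against controls gave Cd80 to Cd86 -0.11, Ctla4 to Foxp3 1.31. Likewise, stable tumours against controls gave Cd80 to Cd86 -0.0716. In turn, responders against controls gave Cd80 to Ptprc -0.11. Also, stable tumours against non-responders gave Cd80 to Ptprc -0.11, Icos to Cd28 -0.0371. With a pseudocount of 2, log2 differences were, in stable tumours against non-responders, Cd80 to Ptprc -0.00719. With limma on log2 count ratios, log2 differences were, in stable tumours against controls, Ctla4 per Cd3e 0.0535. With 1 tumour left out in turn, the genes called of 6 ranged from 1 to 2 in non-responders against controls (per Cd3e), 0 to 1 in responders against stable tumours (per Cd3e), 1 to 3 in stable tumours against controls (per Cd3e), 0 to 1 in responders against stable tumours (level), 3 to 5 in stable tumours against non-responders (level). Over the same omissions, log2 differences in stable tumours against controls were Cd28 per Cd3e -0.19 to 0.19, Cd80 to Ptprc -0.11 to 0.0507, Ctla4 per Cd3e -0.19 to 0.28, Ctla4 to Cd28 -0.12 to 0.21. Over the same omissions, log2 differences in responders against stable tumours were Cd80 -0.0226 to 0.22, Ctla4 to Icos -0.0109 to 0.13. Over the same omissions, log2 differences in stable tumours against non-responders were Cd80 per Cd3e -0.0394 to 0.33, Cd80 to Ptprc -0.0741 to 0.0807, Cd86 per Cd3e -0.30 to 0.30, Ctla4 to Cd28 -0.15 to 0.12, Ctla4 to Icos -0.0902 to 0.0961, Icos to Cd28 -0.0722 to 0.0716. Over the same omissions, log2 differences in non-responders against controls were Cd80 to Ptprc -0.12 to 0.0413, Ctla4 to Cd28 -0.10 to 0.23, Ctla4 to Foxp3 -0.31 to 0.28. Over the same omissions, log2 differences in responders against controls were Ctla4 to Foxp3 -0.0939 to 0.43. Over the same omissions, log2 differences in responders against non-responders were Ctla4 to Foxp3 -0.0235 to 0.40, Ctla4 to Icos -0.0299 to 0.16, Icos to Foxp3 -0.0298 to 0.40.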

Other observations

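The 2 deposited tables did not count Foxp3 alike. In control 1 the count table held 8 Foxp3 counts. Over the 25 tumours, RPKM per count relative to Ptprc ranged from 3.62 to 68.9 for Foxp3, against 3.67 to 5.04 for Ctla4, 2.40 to 2.98 for Icos and 3.57 to 4.88 for Cd3e. With the deposited RPKM values, the log2 difference of Ctla4 to Foxp3 between non-responders and controls was 1.314 (adjusted exact permutation p = 0.0213), where the counts gave -0.05.

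Gm37039, the unassigned model inside Icos, had log2 fold changes of 2.10 in responders over non-responders (adjusted p = 0.00746) and 1.54 in responders over stable tumours (adjusted p = 0.0436), where Icos had 0.99 and -0.27.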
